A study of Mus musculus with 8 samples.

Results

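Podocytes are the epithelial cells that wrap the capillaries of the renal glomerulus. Their foot processes interlock, and the gaps between them are bridged by the slit diaphragm, which together with the glomerular basement membrane holds back plasma proteins. Mature podocytes do not divide, and they keep a differentiated state under transcription factors such as WT1. The 8 genes described here encode parts of this apparatus and were taken by symbol from the deposited gene table, in which each of them had 1 row among the 35275 genes listed. They are Nphs1, Cd2ap, Podxl and Ptpro (slit diaphragm and cell membrane), Synpo (cytoskeleton), Npnt (matrix), and Wt1 and Cdkn1c (nucleus). They were taken by name, with no threshold on a measured value, but with earlier results of these data known. All 8 genes passed the filter on low counts.

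RNA of the renal cortex was sequenced from 8 mice at postnatal day 7, 1 library per mouse. The 4 controls (Con1391, Con1452, Con1822 and Con1823) belong to the mouse line labelled Cre-, and the 4 mutants (Mut1393, Mut1453, Mut1454 and Mut1819) to a Six2-Tfam knockout line. The Tfam protein coats mitochondrial DNA and starts its transcription, and Six2 is active in the progenitors from which podocytes, tubules and parietal epithelium of the nephron arise, but not the collecting duct, vessels or mesangium. The labels do not give the alleles of Tfam in the controls, and as Cre with intact Tfam is missing among the groups, effects of the transgene and of Tfam loss cannot be told apart. The labels name no litters. Values per mouse are given below in the order of these numbers, controls first.

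Counted reads per library ranged from 15597762 to 20417550. Tfam itself had 50.8% of its control level in the mutants (53.1 ± 2.96 against 27.0 ± 0.465 CPM, which are counts after scaling each library to one size, mean ± SD, n = 4 each), and every mutant was below every control. Sex-linked transcripts were unequal as well. Summed over Y-linked genes there were 0 to 3 counts in each control, 4294 to 4915 in 3 mutants and 27 in Mut1819. Results were therefore also computed with a term for libraries with Y-linked counts and with Mut1819 alone. Both fits compare 1 mouse, Mut1819, with the controls, so they are one check rather than separate ones, and they assume that this mouse varies like the other libraries. Each called fewer of all genes tested, higher and lower, than the fit of all 8 mice without that term. Their counts of list genes are therefore not to be set against the shares that fit gave. Podocyte RNA was present in all libraries, with 700 to 1526 counts of Nphs1 per mouse.

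Of the 8 podocyte genes, 6 were lower in mutants, 1 was higher and 1 did not pass the test. The genes that fell were Cdkn1c, Nphs1, Npnt, Synpo, Ptpro and Podxl, to between 41.4% and 70.9% of the control level. Cd2ap rose to 172% of the control level. Wt1 had 108% of the control level, and its groups overlapped. The test was edgeR's quasi-likelihood test with Benjamini-Hochberg adjustment over 15028 genes at 0.05, by which 22.7% of all genes tested were called lower and 23.5% higher in mutants, 46.2% in all. The CPM of the groups did not overlap for 7 of the 8 genes, against 43.0% of all genes tested (20.8% with mutants lower and 22.1% with mutants higher). Whole cortex was sequenced, so fewer podocytes and less RNA per podocyte cannot be told apart. The median log2 fold change, given throughout as mutant over control, was -0.56 over the 8 genes and -0.00 over all genes tested. The 6 falls and the 1 rise were called in each of the 20 other fits made, of which those with the Y-linked term and with Mut1819 alone rest on that 1 mutant.

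**Figure D1:**
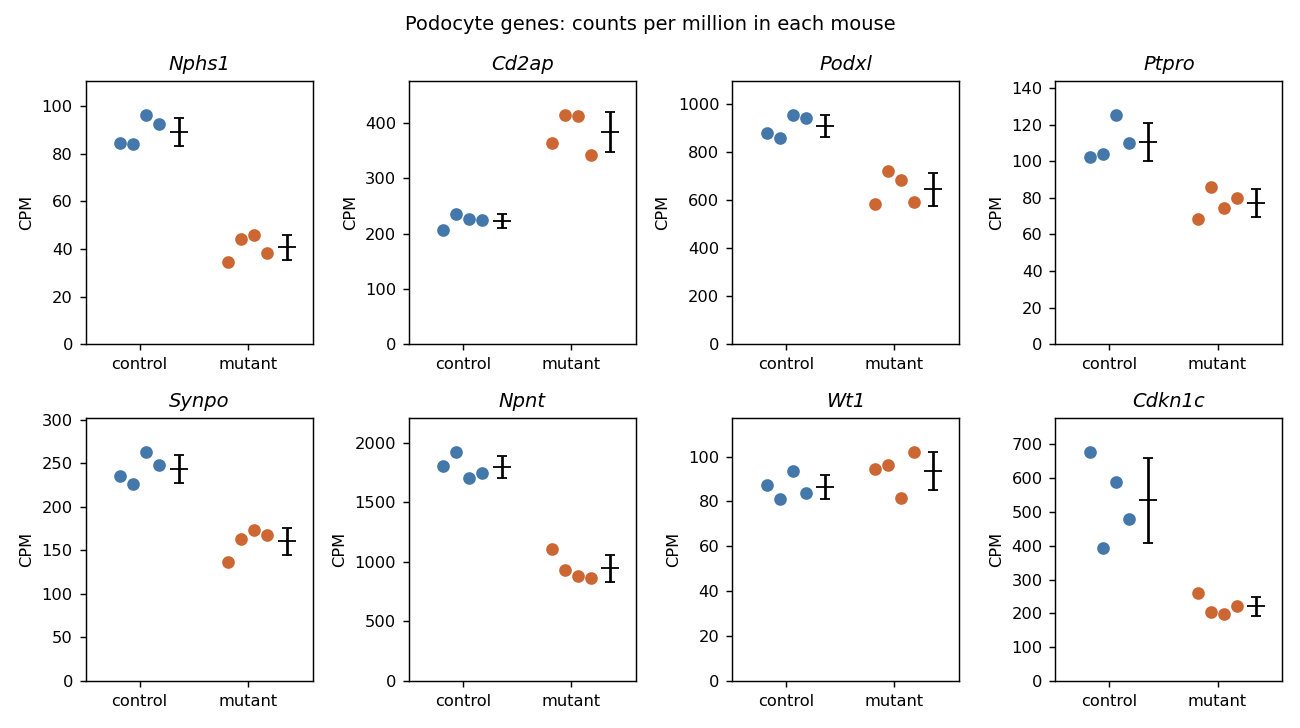
CPM (vertical axes, from 0) of the 8 podocyte genes in the 4 control mice (blue) and the 4 mutant mice (orange), with the mean and SD in black beside each group. Mutants lie below all controls in 6 panels, above them in the Cd2ap panel, and overlap them in the Wt1 panel.

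Nphs1 encodes nephrin, the transmembrane protein whose extracellular domains span the slit. The gene (ENSMUSG00000006649) lies on mm10 chromosome 7, plus strand, from 30458315 to 30487223. It had 84.4, 84.1, 96.0 and 92.2 CPM in Con1391, Con1452, Con1822 and Con1823, and 34.3, 44.1, 45.9 and 38.4 CPM in Mut1393, Mut1453, Mut1454 and Mut1819. The lowest control was thus far above the highest mutant. The log2 fold change was -1.13 (SE 0.09, 95% interval -1.33 to -0.94, adjusted p = 1.09e-06), with rank 424 by p among all genes tested. An antisense gene, Nphs1os, shares 597 exonic bases with Nphs1 and had 1 count over the 8 libraries, and whether counting used strand is not stated. Nphs1 also shares 183 exonic bases with Rps12-ps4.

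Cd2ap encodes an adaptor protein that links nephrin to the actin cytoskeleton and to endocytosis, and it is made in many cell types besides podocytes. The gene (ENSMUSG00000061665) lies on chromosome 17, minus strand, from 42792951 to 42876665. Its level was 206, 235, 227 and 224 CPM in the controls, in the order of mouse numbers above, and 364, 414, 413 and 343 CPM in the mutants. Every mutant was above every control, the opposite of nephrin. The log2 fold change was 0.78 (SE 0.08, 95% interval 0.62 to 0.94, adjusted p = 5.36e-06).

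Podxl encodes podocalyxin, the strongly charged sialoprotein that coats the apical side of foot processes and keeps them apart, and it is also made by endothelium. The gene (ENSMUSG00000025608) lies on chromosome 6, minus strand, from 31519488 to 31563981. Controls had 881, 860, 953 and 941 CPM and mutants 582, 720, 683 and 594 CPM. The groups did not overlap, and at -0.50 (SE 0.08, adjusted p = 3.30e-04) the log2 fold change was smaller in size than the -1.13 of Nphs1. Ptpro, which encodes the receptor tyrosine phosphatase GLEPP1 of the podocyte membrane (ENSMUSG00000030223, chromosome 6, plus strand, 137252319 to 137463233), was close to Podxl in its change. It had 102, 104, 125 and 110 CPM in controls and 68.3, 86.0, 74.3 and 79.7 CPM in mutants, which is -0.51 as log2 fold change (SE 0.08, adjusted p = 3.19e-04). Here too all mutants were below all controls, the nearest mice being Mut1453 and Con1391.

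Synpo encodes synaptopodin, an actin-associated protein of foot processes and of dendritic spines (ENSMUSG00000043079, chromosome 18, minus strand, 60593973 to 60660142). Controls had 236, 226, 263 and 248 CPM and mutants 137, 163, 173 and 168 CPM. All mutants were lower than all controls, and the log2 fold change came to -0.60 (SE 0.08, adjusted p = 6.32e-05). Npnt encodes nephronectin, a basement membrane ligand of the integrin α8β1 that is also made by tubular and ureteric epithelium (ENSMUSG00000040998, chromosome 3, minus strand, 132881745 to 132950291). It had 1806, 1921, 1707 and 1745 CPM in controls and 1109, 934, 879 and 864 CPM in mutants. The groups were far apart, and the log2 fold change was -0.92 (SE 0.09, adjusted p = 4.11e-06). Of the 2 chains of its receptor, Itga8 fell from 184 ± 16.0 to 105 ± 6.10 CPM (log2 fold change -0.81), while Itgb1 had 920 ± 35.7 and 946 ± 25.7 CPM and did not pass the test.

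Wt1 encodes the zinc finger transcription factor that nephron progenitors use and that podocytes keep into adult life (ENSMUSG00000016458, chromosome 2, plus strand, 105126529 to 105173616). Controls had 87.3, 81.3, 93.6 and 83.9 CPM and mutants 94.5, 96.3, 81.7 and 102 CPM. Mut1454 lay within the control range and the other 3 mutants above it. The log2 fold change was 0.11 (SE 0.07, 95% interval -0.05 to 0.27, adjusted p = 0.229), and the adjusted p ranged from 0.0521 to 0.476 over the 20 other fits. Its antisense partner Wt1os, at 3.37 ± 0.496 and 3.33 ± 0.224 CPM, also did not pass.

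Cdkn1c encodes p57, a cyclin-dependent kinase inhibitor that marks podocytes as they leave the cell cycle and is expressed from the maternal allele (ENSMUSG00000037664, chromosome 7, minus strand, 143458339 to 143461050). Controls had 677, 392, 589 and 478 CPM, a coefficient of variation of 23.4%, the widest of the 8 genes in that group. Mutants had 261, 203, 197 and 222 CPM and all lay below the lowest control. At -1.27 (SE 0.15, 95% interval -1.60 to -0.95, adjusted p = 2.71e-05) the log2 fold change was the largest fall of the 8 genes, and its interval overlapped that of Nphs1. Cdkn1c shares 625 exonic bases with an antisense gene, Gm44732, and reads of the pair cannot be told apart without strand. Of the other kinase inhibitors listed, 2 of 5 tested rose and none fell, namely Cdkn1a, which encodes p21, from 68.4 ± 5.59 to 158 ± 12.9 CPM (log2 fold change 1.21) and Cdkn2b from 1.28 ± 0.953 to 4.23 ± 0.222 CPM (log2 fold change 1.73). With Mut1819 alone 1 of the 5 rose, and without Con1823 1 fell. Cdkn2c (-0.19), Cdkn2d (-0.13) and Cdkn1b (-0.04) did not pass, and Cdkn2a had too few counts to test. Of 6 genes of the imprinted region on chromosome 7 that holds Cdkn1c, 4 fell and none rose. The transporter gene Slc22a18 fell from 53.9 ± 13.3 to 15.8 ± 1.94 CPM (log2 fold change -1.77), and H19 (-0.35), Kcnq1 (-0.25) and Phlda2 (-0.78) also fell, but 2 of the 6 with the Y-linked term, with Mut1819 alone, without Con1391 or without Mut1819. Kcnq1ot1, the paternally expressed antisense RNA of this region, had 22.3 ± 0.941 and 19.9 ± 1.50 CPM and did not pass. Over all genes tested 23.5% rose and 22.7% fell, and no test was made of this list or of the kinase inhibitors.

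The sequences before the start sites of 4 of the 8 genes (Nphs1, Ptpro, Npnt and Cd2ap) were matched in RefSeq (GRCm38.p6). Those of Ptpro, Npnt and Cd2ap are shown, to set the gene that rose beside genes that fell. That of Nphs1 is not shown, since it lies in an exon of a GENCODE transcript of the gene, and most of the Cd2ap window also lies in an exon of a GENCODE transcript. Each line gives 250 bases on the gene's own strand, ending just before the RefSeq start site. Capitals mark a match to the motif GCGNGGGNG, which WT1 and EGR proteins are known to bind, on either strand.
Ptpro (chr6:137252049-137252298, plus strand): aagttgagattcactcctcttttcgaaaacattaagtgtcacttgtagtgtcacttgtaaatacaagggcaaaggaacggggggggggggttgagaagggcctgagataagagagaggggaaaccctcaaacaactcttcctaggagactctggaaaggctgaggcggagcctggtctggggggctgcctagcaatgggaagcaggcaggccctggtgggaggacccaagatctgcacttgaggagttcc
Npnt (chr3:132950292-132950541, minus strand): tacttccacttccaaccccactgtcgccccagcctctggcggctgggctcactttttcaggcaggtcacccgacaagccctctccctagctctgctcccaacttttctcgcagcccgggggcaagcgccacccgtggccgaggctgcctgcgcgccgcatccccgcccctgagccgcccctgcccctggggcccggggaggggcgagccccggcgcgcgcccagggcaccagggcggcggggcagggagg
Cd2ap (chr17:42876425-42876674, minus strand): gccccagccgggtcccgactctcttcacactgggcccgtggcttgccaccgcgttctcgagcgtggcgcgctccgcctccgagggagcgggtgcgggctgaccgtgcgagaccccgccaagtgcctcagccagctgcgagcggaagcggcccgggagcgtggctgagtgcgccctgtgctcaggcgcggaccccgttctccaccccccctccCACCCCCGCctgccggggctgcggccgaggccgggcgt
Among the 4 windows only that of Cd2ap, the gene that rose, held such a match, starting 38 bases before the start site and with the motif's letters on the strand opposite the gene, so that its reverse complement is printed, and 10.5% of all 32851 windows of this length held such a match. The motifs TCCTCCTCC, also reported for WT1, and TGATGNAA, which ATF4 binds with its partners, occurred in none of the 4, against 2.45% and 3.45% of all windows. GC content was 50.8% for Nphs1 and 53.6% for Ptpro, and 74.0% for Npnt and 76.4% for Cd2ap, against a median of 52.4% over all windows. These matches describe letters alone.

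Nphs1 has a close neighbour on the opposite strand, Kirrel2, which encodes a nephrin-related protein of the slit diaphragm, and 2543 bases separate the start sites of the 2 genes in RefSeq. Both genes fell, and the window before the start of Kirrel2 held none of the 3 motifs. Kirrel2 was counted 19, 23, 25 and 30 times in control mice and 15, 11, 19 and 11 times in mutant mice, or 1.49 ± 0.265 and 0.724 ± 0.145 CPM. Its log2 fold change was -1.03 (SE 0.25, adjusted p = 0.00507), with counts low enough that the error is wide.

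**Figure D2:**
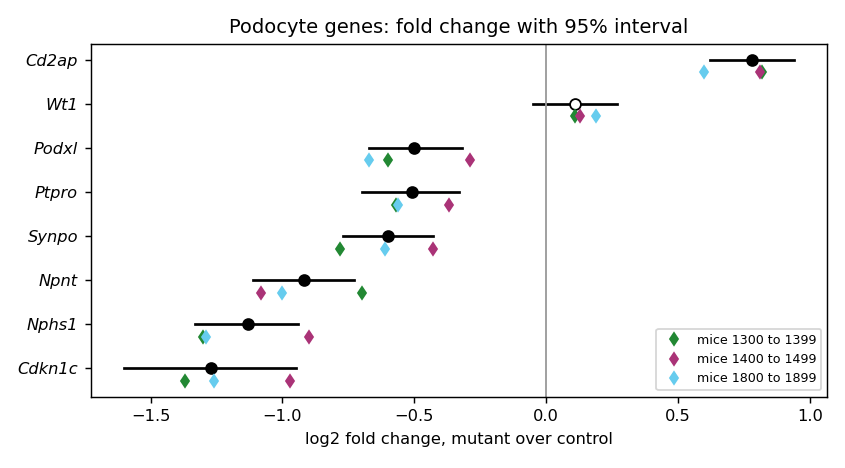
Log2 fold change, mutant over control (horizontal axis), of the 8 podocyte genes, with circles at the fitted value (filled where the adjusted p is under 0.05), lines for the 95% interval, and diamonds for the log2 ratio of mean CPM within each range of mouse numbers. Cdkn1c and Nphs1 lie furthest to the left, Wt1 at 0.11 spans 0, and Cd2ap lies alone to the right.

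Levels of different genes can be compared per length in the authors' FPKM (fragments per kilobase of gene, scaled by library size). In controls Npnt had the highest level at 597 ± 13.9 FPKM, followed by Podxl at 309 ± 24.7 and Cdkn1c at 273 ± 70.6, whose mice overlapped. Below them came Synpo at 80.3 ± 7.87, Nphs1 at 59.4 ± 5.62, Wt1 at 43.4 ± 4.14, Cd2ap at 40.2 ± 2.04 and Ptpro at 18.6 ± 2.32 FPKM. Wt1 and Cd2ap overlapped, and the other neighbours in this order were separated in every control mouse. In mutants Cd2ap, at 72.7 ± 5.53 FPKM, stood above Synpo at 55.7 ± 5.51, Wt1 at 49.4 ± 5.25 and Nphs1 at 28.4 ± 3.39 FPKM. Synpo and Wt1 overlapped there, while Nphs1 lay below Wt1 in every mutant, although it lay above Wt1 in every control. Npnt at 332 ± 39.7, Podxl at 231 ± 21.4 and Cdkn1c at 119 ± 16.6 FPKM kept the first 3 places, and Ptpro at 13.7 ± 1.39 FPKM the last.

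The genes were next compared within each library by the log2 ratio of their counts to those of Nphs1, a measure that does not depend on how libraries are scaled. For 5 of the 7 other genes the ratio was higher in every mutant than in every control, but the same held in either direction for 86.1% of 14971 genes (84.4% with mutants higher and 1.73% lower). The ratio of Cd2ap went from a mean of 1.32 (SD 0.11) to 3.24 (SD 0.12), a rise of 1.92 or 3.78-fold. That of Wt1 went from -0.04 (SD 0.08) to 1.21 (SD 0.29), a rise of 1.25. Counts of Wt1 and Nphs1 were thus nearly equal in controls, whereas in Mut1393, Mut1453, Mut1454 and Mut1819 the log2 ratio was 1.46, 1.13, 0.83 and 1.40.

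Among the genes that fell, Podxl, Ptpro and Synpo fell by less than Nphs1. Their ratios rose by 0.64, 0.63 and 0.54, each with an SD of at most 0.06 in controls and 0.16 in mutants. For these 5 genes the exact permutation test gave p = 0.0286 each, two-sided and unadjusted over the 7 ratios, the smallest value that 4 mice against 4 allow. The ratios of Npnt (a difference of 0.21, exact permutation p = 0.371) and Cdkn1c (-0.11, exact permutation p = 0.657) overlapped between the groups. The ratio of Podxl to Nphs1 was particularly even among controls, at 3.38, 3.35, 3.31 and 3.35, against 4.09, 4.03, 3.89 and 3.95 in mutants.

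**Figure D3:**
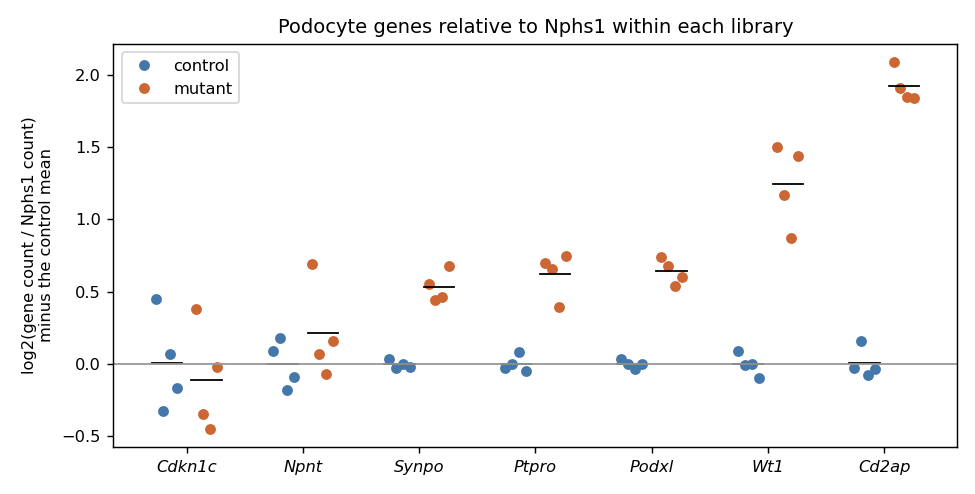
Log2 ratio of each gene's count to the Nphs1 count within a library, minus the mean of the controls (vertical axis), for 4 controls (blue) and 4 mutants (orange), with short lines at the group means. Mutants lie above all controls for Synpo, Ptpro, Podxl, Wt1 and Cd2ap, and among them for Cdkn1c and Npnt.

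The mutants were not alike in all podocyte genes. Rhpn1, which encodes rhophilin 1, a protein of podocytes, had 50.0, 45.6, 49.9 and 50.2 CPM in controls and 18.7, 41.6, 38.7 and 18.6 CPM in Mut1393, Mut1453, Mut1454 and Mut1819 (log2 fold change -0.73, SE 0.23, adjusted p = 0.0197). Here Mut1453 and Mut1454 stood near the controls and Mut1393 and Mut1819 well below. Con1452, Mut1453 and Mut1454 have numbers in the 1400 range, and the labels do not say what the numbers stand for. The source of this difference among the mutants was not tested.

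An interaction of group and number range in edgeR, run after these values were seen, passed at an adjusted p under 0.05 for 0.273% of 15028 genes, or 41. Rhpn1 (adjusted p = 0.00808) was among them, and none of the 8 podocyte genes was. The range from 1300 holds 1 control and 1 mutant, that from 1400 1 control and 2 mutants, and that from 1800 2 controls and 1 mutant. Within the 1300, 1400 and 1800 ranges the log2 ratio of mean CPM was -1.42, -0.18 and -1.42 for Rhpn1. For Nphs1 it was -1.30, -0.90 and -1.29 (unadjusted p = 0.0159, adjusted p = 0.381 for the interaction), and for Podxl -0.60, -0.29 and -0.67 (adjusted p = 0.494). For Synpo it was -0.78, -0.43 and -0.61, for Ptpro -0.57, -0.37 and -0.56, and for Cdkn1c -1.37, -0.97 and -1.26. Values for these 5 genes were thus nearest to 0 in the 1400 range, but that difference did not pass the adjusted test. Npnt had its smallest change in the 1300 range (-0.70, -1.08 and -1.0), Cd2ap rose in all 3 (0.82, 0.81 and 0.60), and Wt1 stayed between 0.11 and 0.19. Without the mice of the 1400 range, Nphs1 had a log2 fold change of -1.31 and Cd2ap of 0.70, and the same 6 falls and 1 rise were called.

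**Figure D4:**
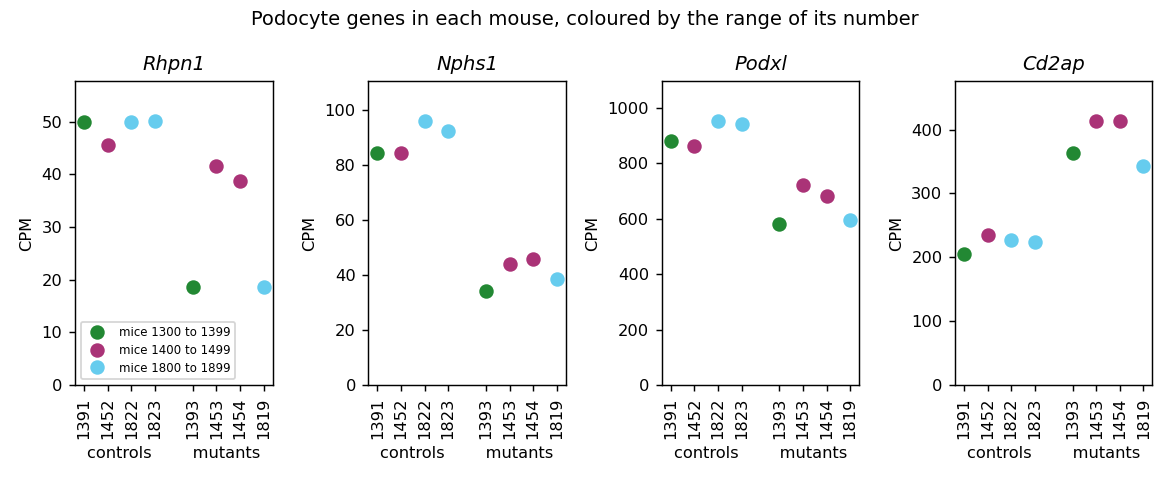
CPM (vertical axes, from 0) of Rhpn1, Nphs1, Podxl and Cd2ap in each mouse (horizontal axis, controls to the left), coloured by the range of the mouse number. For Rhpn1, Mut1453 and Mut1454 lie close to the controls, at 41.6 and 38.7 CPM, while Mut1393 and Mut1819 are at 18.7 and 18.6 CPM.

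Other podocyte genes were taken from 4 lists of 68 genes in all, of which 36 fell, 8 rose and 24 did neither. Their median log2 fold change was -0.26. Whole cortex was read, so the cells behind these falls and rises were not told apart. These counts are 52.9% lower and 11.8% higher, against 22.7% and 23.5% of all genes tested. In the comparison of the single mouse Mut1819 with the controls, fewer of the 68 fell and fewer rose, as held for all genes tested. That was so with the Y-linked term and with Mut1819 alone. Of 18 genes enriched in podocytes that have other functions, 14 fell and none rose, with a median of -0.70. Angpt1, which encodes the angiopoietin ligand of the endothelial receptor Tek, went from 53.0 ± 3.02 to 18.3 ± 2.11 CPM, or -1.53 on the log2 scale (adjusted p = 7.12e-08). Ddn, which encodes the actin-associated protein dendrin, went from 71.5 ± 5.98 to 38.9 ± 3.42 CPM (-0.88), the chloride channel family gene Clic5 from 183 ± 13.0 to 106 ± 9.72 CPM (-0.78), and the aminopeptidase A gene Enpep, also known from proximal tubule, from 490 ± 20.6 to 290 ± 18.1 CPM (-0.76). Vegfa, the main endothelial growth factor made by podocytes and tubules, had 187 ± 14.8 and 196 ± 16.4 CPM and did not pass (log2 fold change 0.07, adjusted p = 0.497).

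Over all genes tested 22.7% fell and 23.5% rose. Of 30 genes of the slit diaphragm and foot process, 13 fell, 5 rose and 12 did neither. The median was -0.04. With the Y-linked term fewer of the 30 fell and fewer rose, as held for all genes tested. Arhgap24, which encodes a GTPase-activating protein that restrains Rac1, went from 430 ± 8.51 to 251 ± 23.8 CPM, or -0.78 on the log2 scale (adjusted p = 3.84e-06). Crb2, a polarity gene required for foot processes, went from 28.7 ± 3.50 to 16.3 ± 1.72 CPM (-0.82), and Slc9a3r1, a scaffold gene also known from the brush border of proximal tubule, from 223 ± 14.7 to 153 ± 14.5 CPM (-0.54). The dynamin gene Dnm2, expressed in most cells, rose from 118 ± 3.98 to 151 ± 8.96 CPM (0.36). The cytoskeletal genes Actn4 (0.04), Myo1e (0.02) and Inf2 (0.09), which many cells express, did not pass, and neither did the nephrin relative Kirrel (-0.04). These last 4 were chosen after their values were seen.

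Among genes of the glomerular basement membrane and its receptors, 5 of 13 fell and 2 rose, with a median of -0.10. Fewer of them fell and fewer rose with the Y-linked term, as held for all genes tested. Without Con1822, Con1823, Mut1393 or Mut1453, 1 of them rose. Beside this list and the transcription factors below, 22.7% of all genes tested were called lower and 23.5% higher. The falls included all 3 chains of the collagen IV network that podocytes make, but the cells in which they fell were not told apart. Col4a3 went from 176 ± 22.6 to 94.2 ± 12.3 CPM (log2 fold change -0.90), Col4a4 from 273 ± 21.6 to 155 ± 4.23 CPM (-0.82) and Col4a5 from 256 ± 15.6 to 161 ± 18.4 CPM (-0.67). Itga3, the laminin receptor chain of podocytes that tubules and collecting duct also make, rose from 143 ± 8.73 to 211 ± 19.7 CPM (0.56). Of 7 podocyte transcription factor genes, 4 fell and 1 rose, with a median of -0.21, and fewer of them passed with the Y-linked term. Foxd1 went from 21.5 ± 1.82 to 14.5 ± 2.17 CPM (-0.57) and Lmx1b from 12.8 ± 2.22 to 8.92 ± 1.39 CPM (-0.52). The widely expressed Tead1 rose from 146 ± 8.31 to 175 ± 5.40 CPM (0.26). Genes known to rise in injured podocytes were read in whole cortex, so the cells that made them were not told apart. Of 7 such genes tested, 1 rose and none fell, against 23.5% higher and 22.7% lower over all genes tested. That gene was Plaur, the urokinase receptor, from 6.20 ± 0.474 to 18.9 ± 3.98 CPM (log2 fold change 1.61), while Snai1 (-0.23), Fn1 (-0.15) and Snai2 (0.09) did not pass, and 2 of the 7 rose with the Y-linked term.

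Markers of other renal cells were measured in the same libraries, in which 22.7% of all genes tested were called lower and 23.5% higher. All 12 endothelial markers fell. The median of their log2 fold changes was -0.36, and their summed level was 1526 to 1728 CPM in controls and 1185 to 1310 CPM in mutants. With the Y-linked term, as with Mut1819 alone, fewer of the 12 fell, as did fewer of all genes tested. Tek, the receptor for angiopoietin, went from 116 ± 6.93 to 67.3 ± 5.27 CPM (-0.78), Ehd3, a marker of glomerular capillaries, from 104 ± 10.2 to 53.7 ± 8.40 CPM (-0.95), Emcn from 127 ± 7.28 to 92.2 ± 6.35 CPM (-0.46) and Tie1 from 146 ± 11.6 to 108 ± 8.45 CPM (-0.43). Because endothelium also makes Podxl, its part in the fall of Podxl was not tested. Of 5 mesangial markers tested 3 fell, with a median of -0.29. The summed level of mesangial markers was 671 to 750 CPM in controls and 512 to 591 CPM in mutants. Itga8, Pdgfrb (-0.29) and Cspg4 (-0.35) fell, while Pdgfra (-0.26) did not pass. With the Y-linked term fewer of the 5 fell, as did fewer of all genes tested.

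Parietal epithelium and nephron progenitors, which belong to the same lineage as podocytes, were measured too. Of 6 parietal markers 5 rose, against 23.5% of all genes tested, with a median of 0.38. Their summed level was 729 to 886 CPM in controls and 1143 to 1253 CPM in mutants. Without Con1452, without Con1823 or without Mut1819, 3 of the 6 rose. With the Y-linked term fewer than 5 rose, as did fewer of all genes tested. Cd24a went from 392 ± 34.1 to 657 ± 75.7 CPM (0.75), Cdh6 from 53.5 ± 2.42 to 85.2 ± 13.4 CPM (0.67), Cldn1 from 55.8 ± 3.56 to 74.7 ± 11.7 CPM (0.42) and Pax2 from 48.3 ± 9.33 to 60.9 ± 3.13 CPM (0.33). Most of these genes are also expressed by tubules. Progenitor markers were low, with a summed level, mostly of Sall1, of 106 to 115 CPM in controls and 156 to 171 CPM in mutants. Of 7 tested 3 rose and 2 fell, against 23.5% and 22.7% of all genes tested, but none fell without the mice of the 1400 range, and 1 fell with the Y-linked term and without Con1391, Con1822, Con1823, Mut1393 or Mut1453. Sall1 rose from 72.2 ± 2.91 to 122 ± 5.08 CPM (0.75), Eya1 from 1.54 ± 0.275 to 4.06 ± 0.626 CPM (1.39) and Crym from 14.9 ± 4.30 to 22.2 ± 2.91 CPM (0.58), while Cited1 fell from 3.01 ± 0.764 to 1.59 ± 0.518 CPM (-0.91). Meox1 (-0.34) also fell, and Osr1 (0.37) and Gdnf (-0.37) did not pass. Six2 itself had 3, 0, 0 and 2 counts in controls and 15, 9, 6 and 12 in mutants, too few for the test. The part of these cells in the level of Wt1 was not tested.

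All 12 proximal tubule markers fell, while 22.7% of all genes tested were called lower and 23.5% higher. Their median was -2.93, and their summed level was 5467 to 7501 CPM in controls and 786 to 1473 CPM in mutants. The median of the 8 podocyte genes was -0.56 beside it, and no test of this difference was made. Slc22a8 (-3.11), Slc13a3 (-2.75), Miox (-4.27) and Slc27a2 (-2.27) had the smallest p. Of 8 collecting duct markers tested, 6 fell and none rose (1 rose without Con1391), with a median of -0.53. Their summed level was 1641 to 1797 CPM in controls and 1023 to 1436 CPM in mutants. Those that fell included the sodium channel genes Scnn1b (-0.78) and Scnn1g (-0.63), the steroid dehydrogenase gene Hsd11b2 (-0.85) and the transcription factor gene Tfcp2l1 (-0.56). Aqp2 (0.42) and Elf5 (-0.08) did not pass. The part of cells outside the Six2 lineage in these falls was not tested. The part of a changed mixture of cells in the falls of Npnt and Cdkn1c, which other cells also express, was not tested.

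**Figure D5:**
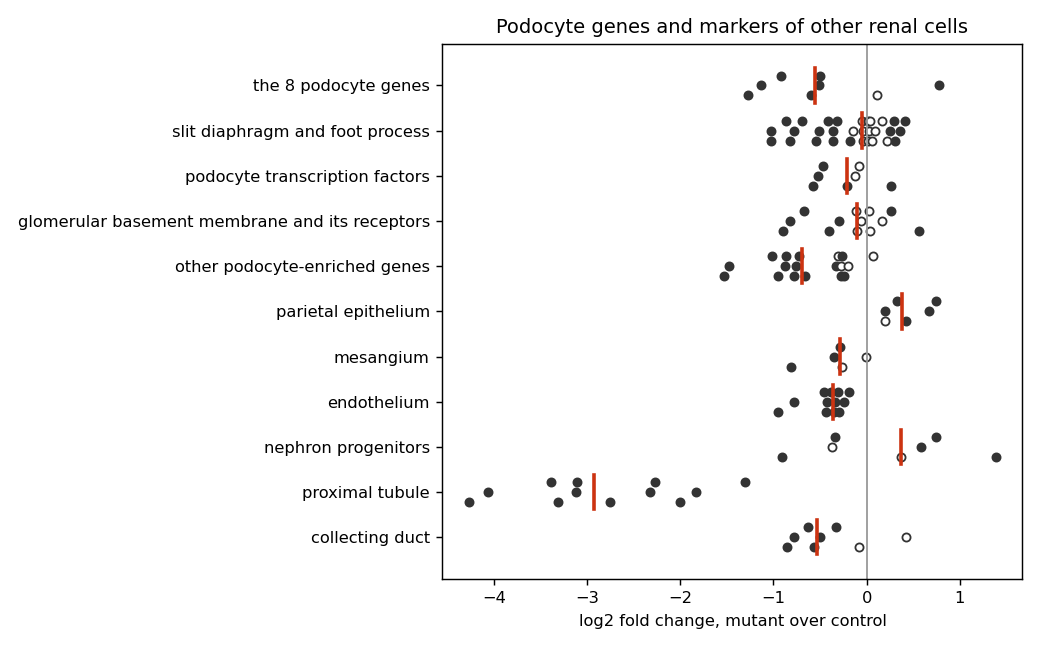
Log2 fold change, mutant over control (horizontal axis), of each tested gene in the 8 podocyte genes, 4 further podocyte lists and 6 lists of markers of other renal cells, filled where the adjusted p is under 0.05, with a red line at the median. The median is -0.56 for the 8 genes, -0.70 for other podocyte-enriched genes, -2.93 for proximal tubule and 0.38 for parietal epithelium.

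Genes whose pattern was most like that of Nphs1 were ranked by Pearson's r of log2 CPM over the 8 libraries among 13361 other genes, as a description, since all share the same libraries and the same difference between groups. The highest were Plekhd1 (r = 0.997, log2 fold change -1.53), Tpgs2 (0.993), Dkk2 (0.993), Tmem150c (0.992) and Pfkm (0.991). Synpo (r = 0.982) had rank 27, Podxl (0.980) rank 31, Ptpro (0.946) rank 328, Npnt (0.910) rank 929 and Cdkn1c (0.882) rank 1397, while Wt1 (-0.524) and Cd2ap (-0.909) lay far down. For deviations from the group means, which leave out the difference between groups, the highest were Mmadhc (0.988), Calm2 (0.985), Vcp (0.980), Rsl1d1 (0.979) and Anp32b (0.977). Podxl (0.921) had rank 83 and Synpo (0.854) rank 300 by that measure, while Cd2ap (0.681) had rank 1256 and Ptpro (0.662) rank 1395. Wt1 (-0.252), Cdkn1c (-0.342) and Npnt (-0.734) were below 0. The sign for Cd2ap was thus positive within groups and negative over all libraries.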

How the data were processed

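Renal cortex RNA of 4 control and 4 mutant mice was sequenced, 1 library a mouse, and titles gave the groups. Per the submitters' processing notes, the tools were Bowtie2, TopHat2, HTSeq and DESeq2, with mm10 as the build. Per the file headers, the deposited table gives counts and FPKM for each mouse, the authors' mean normalized signal per group, and the authors' log2 fold change, p-value and adjusted p-value, which serve no result here. Gene positions came from GENCODE M21, which held 34490 of 35275 identifiers.

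Counts were fitted with edgeR 4.0.16 (R 4.3.3; filterByExpr, TMM, quasi-likelihood test, Benjamini-Hochberg adjustment), and CPM use TMM-scaled library sizes. Total counts of 15597762 to 20417550 set the precision. The other fits were DESeq2 1.42.0, limma 3.58.1 with voom, other scalings and filters, terms for number range or Y-linked counts, Mut1819 alone, and each mouse left out. A fit without the 1400 range and the interaction were added after seeing the data. Ratios to Nphs1 used an exact permutation test over 70 assignments. The fit was tested on simulated counts.

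The 8 genes, the 15 other lists and the tests were chosen with earlier results of these data known. The text names the 8 genes, Tfam, the 4 genes of each list with the smallest adjusted p, and the 5 most like Nphs1 by each measure; all others were picked with their values in view. Some genes of the lists are counted but not reported here by name. Of 3 rows named Magi2, the one with most counts was used. No 2 libraries were duplicates, with a reduced chi-square of at least 4.63 over 12 pairs.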

Additional observations from a re-analysis of the deposited data

Results flagged for a closer look

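The ratio of mutants to controls differed between the ranges of mouse numbers in Rhpn1. Its log2 ratio was -0.18 in the 1400 range, against -1.42 and -1.42 in the 1300 and 1800 ranges. The interaction test and its adjusted p-value are given above, and it was run after the values were seen.

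A single mouse stood apart from the other 3 of its group in 5 of the 142 groups of 4 values examined, and chance alone gives about 1 in 20. Tfam was 48.7 CPM in Con1822, against 54.4 to 54.8 in the other controls. Among the mutants, Ddn was 33.8 CPM in Mut1393 against 40.3 to 40.9 in the others, and Cdkn2b was 3.89 CPM in Mut1819 against 4.34 in the other 3. Among the controls, Rhpn1 was 45.6 CPM in Con1452 against 49.9 to 50.2, and Slc22a18 was 73.8 CPM against 45.1 to 48.3. None of the 8 podocyte genes, nor their ratios to Nphs1, had such a mouse.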

How the results depend on the processing

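The calls of the 8 podocyte genes (6 lower, 1 higher) and the direction of all 8 were the same in 20 other fits, as was the fall of Tfam. The log2 fold change ranged from -1.31 to -1.06 for Nphs1, -1.39 to -1.13 for Cdkn1c, -1.06 to -0.82 for Npnt, -0.70 to -0.53 for Synpo, -0.59 to -0.44 for Ptpro, -0.65 to -0.42 for Podxl and 0.62 to 0.85 for Cd2ap. The adjusted p of Ptpro reached 0.0318 at most. Total counts without TMM shifted the median of all genes by 0.08 and gave 4481 genes higher and 2656 lower, against 3532 and 3416. The Y-linked term gave 1891 and 2076, and with it fewer genes of the 4 podocyte lists passed, as stated above. The count of 5 non-overlapping ratios to Nphs1 was the same with FPKM, with 1 count added, and without each mouse in turn. No paired analysis was made because the labels name no litters, and the term for the range of mouse numbers changed no call among the 8 genes. Low counts limit Kirrel2 and Six2.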
